A study of Mus musculus with 6 samples.

Results

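The genes described here encode the urea cycle and the pathways by which liver breaks down amino acids. They were chosen by name, as a list of 43 enzymes and carriers, and each was measured through the probe sets annotated with its symbol alone. Of the 43 genes, 40 had such a probe set and 3 (Gls2, Sds and Sdsl) were not analysed here. All 40 passed the filter on dim probe sets, among 13144 genes that did, and 18193 genes had a probe set with 1 symbol in all. RNA from whole liver of male mice aged 3 weeks was hybridised to Affymetrix arrays, 1 array per mouse, with 3 control and 3 mutant mice. Controls had 1 loxP-flanked and 1 normal copy of Srf, the gene of the transcription factor SRF (Srf loxP/+ AlfpCre), and in mutants both copies were flanked (Srf loxP/loxP AlfpCre). The Cre transgene AlfpCre was present in both groups, and the labels describe the disruption as one of hepatocytes, so the controls too can lose 1 copy. Whole liver also holds other cells, and fewer cells of a type and less RNA per cell cannot be told apart in such samples.

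Amino acids that are not used for protein are stripped of their nitrogen in the liver. Transaminases and glutamate dehydrogenase collect it as glutamate, ammonia and aspartate, and the urea cycle turns ammonia and aspartate into urea, partly in mitochondria and partly in the cytosol. The carbon skeletons go on to glucose, ketone bodies or the citric acid cycle, and several of these enzymes are known to be raised by fasting, glucagon and glucocorticoids and to be most abundant in hepatocytes near the portal vein.

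The 3 mutant arrays were not alike, and this touches every result. Across the probe sets kept, mutant 1 correlated with the controls at 0.781 to 0.809, mutant 2 at 0.919 to 0.931 and mutant 3 at 0.871 to 0.899, while controls correlated with each other at 0.937 to 0.941. The ratios of 3' to 5' control probe sets, a measure of RNA degradation, were highest in mutant 1 for Actb, Gapdh and Pcx. For Gapdh all 3 mutants (1.006, 0.773 and 0.866) lay above all controls (0.679 to 0.756). Between the means of mutants and controls, exact permutation p was 0.2, 0.1 and 0.2 for Actb, Gapdh and Pcx. The smallest p that 3 against 3 arrays allow is 0.1. An index of the 3 ratios, their mean on the log2 scale, was 0.78 to 1.22 in controls and 2.18, 1.18 and 1.57 in mutants 1 to 3. It partly follows the groups, so a fit with it as a covariate cannot fully tell group and index apart. Levels below are log2 signals after the arrays were scaled to a common mean, so 1 unit is a 2-fold difference, and a log2 fold change is the mutant mean minus the control mean. Probe sets differ in how well they bind, so levels are compared between arrays and not between genes.

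None of the 40 genes differed between mutants and controls after adjustment over all probe sets (limma, adjusted p threshold 0.05). Over all genes 15 of 13144 passed, which is 0.114%. At an unadjusted p under 0.05, 10 of the 40 were higher in mutants, against 7.36% of all genes, and 0 were lower, against 7.01% of all genes. The 10 were Ass1, Got1, Prodh, Aass, Tat, Mat1a, Ahcy, Asl, Nags and Cps1. In 13 genes all 3 mutant arrays lay above all 3 controls (14.1% of all genes did), in 2 all lay below (10.8% of all genes), and in 25 the groups overlapped. The median log2 fold change of the 40 was 0.16, against 0.06 over all genes, and 23 were positive, or 57.5% against 54.1% of all genes. On the deposited scaling, without the common mean, the median of all genes was -0.39 and that of the 40 genes -0.29. At an unadjusted p under 0.05, 2 of the 40 were then higher, against 1.46% of all genes, and 2 lower, against 13.8%. Without overlap 5 lay above the controls, against 3.08% of all genes, and 5 below, against 20.4%. On that scaling 11 of the 40 genes changed sign. For genes whose groups were apart, the value on it is given below where the separation ended or the value moved by over 1.5 times. For genes whose groups overlapped it is not given, so their values below hold for the common scaling only.

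**Figure D1:**
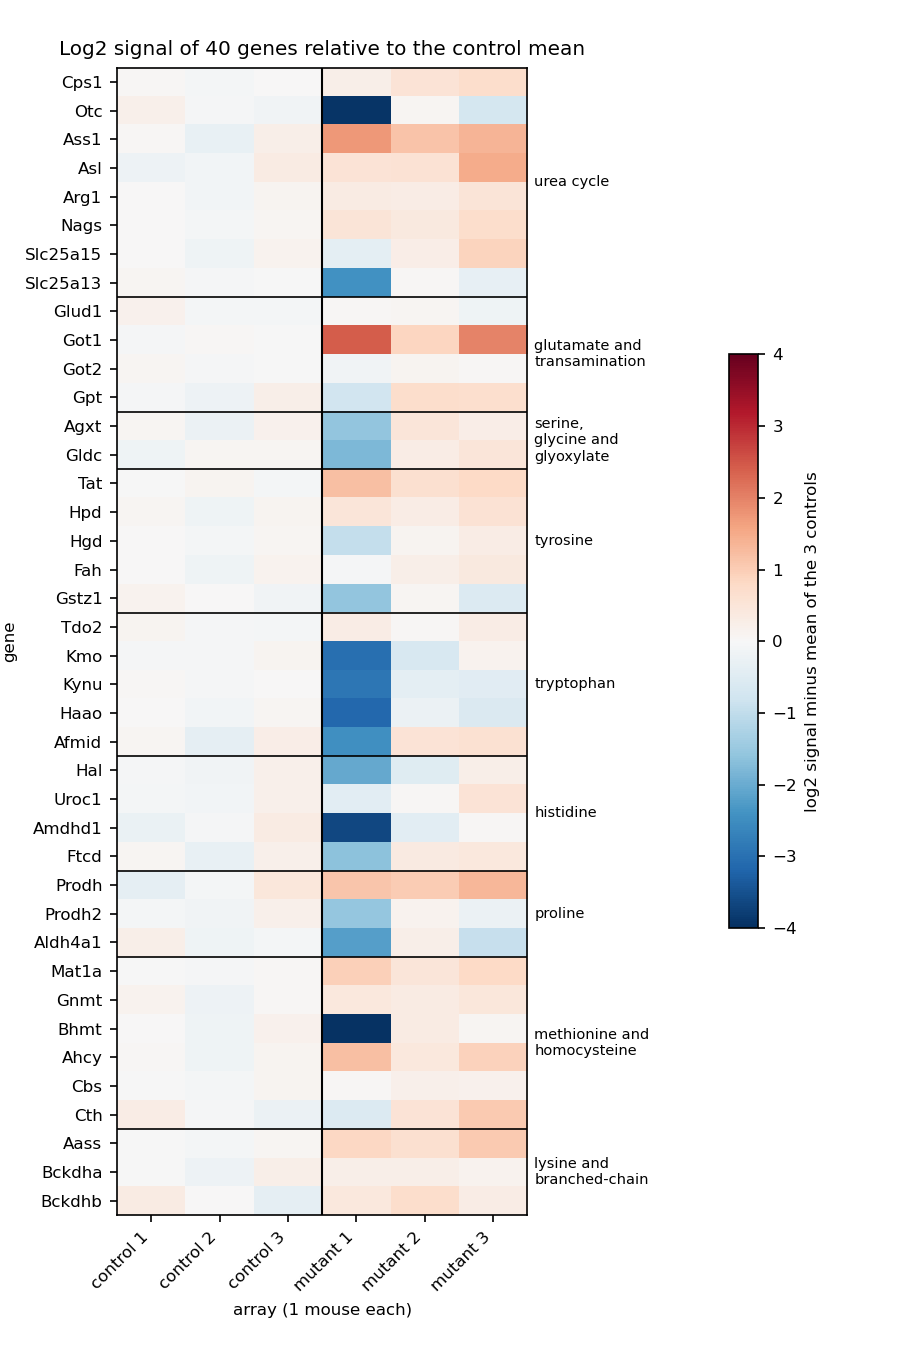
Heat map of 40 genes (rows, by pathway) on 6 arrays (columns), coloured by log2 signal minus the mean of the 3 controls. Mutant 1 holds the deep blue cells, with 15 genes lowered by more than 1, while Ass1, Got1, Tat, Prodh and Aass are red in all 3 mutants.

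The genes with the smallest p and a promoter entry are shown with their promoters, since they carry the clearest separation of the groups. The sequences are from RefSeq (build GRCm38.p6), run from 250 bases before to 50 bases after the start site, and are written 5' to 3' on the strand of the gene. Ass1 is at chr2:31470020-31470319 on the plus strand. Got1 is at chr19:43524556-43524855, Prodh at chr16:18089141-18089440 and Aass at chr6:23132937-23133236, all on the minus strand. Capitals mark matches, on either strand, to a CCAAT box (CCAAT), a GC box (GGGCGG) or a C/EBP-ATF element (TGATGNAA), a composite site to which ATF4 can bind.
Ass1: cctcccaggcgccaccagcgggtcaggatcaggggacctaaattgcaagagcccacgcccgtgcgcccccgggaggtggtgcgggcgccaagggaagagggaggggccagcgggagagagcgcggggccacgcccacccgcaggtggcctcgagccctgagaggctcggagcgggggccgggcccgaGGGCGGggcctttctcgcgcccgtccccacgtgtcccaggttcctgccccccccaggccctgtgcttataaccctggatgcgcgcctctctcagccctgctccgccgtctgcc
Got1: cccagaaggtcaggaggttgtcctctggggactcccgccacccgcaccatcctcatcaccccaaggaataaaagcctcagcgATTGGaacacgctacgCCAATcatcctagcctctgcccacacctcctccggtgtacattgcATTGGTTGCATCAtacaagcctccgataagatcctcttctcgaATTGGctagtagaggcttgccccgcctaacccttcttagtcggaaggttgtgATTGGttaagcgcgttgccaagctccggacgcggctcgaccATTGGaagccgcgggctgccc
Prodh: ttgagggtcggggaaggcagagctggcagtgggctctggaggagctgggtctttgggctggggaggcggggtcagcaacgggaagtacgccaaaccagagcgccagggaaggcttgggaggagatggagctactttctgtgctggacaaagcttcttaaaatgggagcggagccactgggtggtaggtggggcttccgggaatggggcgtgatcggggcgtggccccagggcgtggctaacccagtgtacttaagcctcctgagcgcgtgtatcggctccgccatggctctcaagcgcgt
Aass: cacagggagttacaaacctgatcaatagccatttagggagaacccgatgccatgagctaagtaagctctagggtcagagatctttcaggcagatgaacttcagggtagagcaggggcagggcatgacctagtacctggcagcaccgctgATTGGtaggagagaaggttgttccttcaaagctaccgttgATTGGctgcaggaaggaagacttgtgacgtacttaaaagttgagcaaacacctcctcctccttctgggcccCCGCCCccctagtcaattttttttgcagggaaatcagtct
The Got1 promoter held 6 CCAAT boxes, and 0.0791% of all 32851 promoters of this length held as many or more. It also held the C/EBP-ATF element, at positions -102 to -95 relative to the start site, next to a CCAAT box that ends at -103. No other promoter among the 36 entries that matched 33 of the 43 genes held this element, a share of 2.78% against 3.97% of all promoters. CCAAT boxes were in 19 of the 36 (52.8%, against 37.4% of all), GC boxes in 16 (44.4% against 35.7%) and the TATA box TATAAA in 5 (13.9% against 13.6%). The cyclic AMP response element TGACGTCA was in 0 of 36 (1.79% of all), the C/EBP palindrome TTGCGCAA in 0 (0.183% of all) and the CArG box, the letters SRF binds, in 0 (1.63% of all). A match of letters is a description and shows no binding.

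Of the 8 urea cycle genes, 5 were higher on every mutant array than on any control, against 14.1% of all genes. At an unadjusted p under 0.05, 4 of these were higher, against 7.36% of all genes. The median log2 fold change was 0.44, and -0.01 on the deposited scaling. Cps1 makes carbamoyl phosphate from ammonia, the entry step of the cycle. Its log2 signals were 12.37, 12.25 and 12.33 in controls, and 12.56, 12.87 and 13.03 in the mutant livers, numbered 1 to 3. All mutants lay above all controls, with a log2 fold change of 0.50 (SE 0.20, unadjusted p = 0.0399, adjusted p = 0.354) or 1.42-fold, and of 0.05 on the deposited scaling, where the groups overlapped, and 0.11 after quantile normalization, where they also overlapped. Nags makes N-acetylglutamate, without which CPS1 is inactive, and gave 7.45, 7.38 and 7.52 in controls and 7.97, 7.83 and 8.15 in mutants. The groups were again apart (log2 fold change 0.54, SE 0.21, unadjusted p = 0.0360, adjusted p = 0.350), and the value was 0.08 on the deposited scaling, with overlap.

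Ass1 and Asl encode the pair of cytosolic enzymes that join citrulline to aspartate and split the product into arginine and fumarate. Ass1 gave 4.75, 4.42 and 4.96 in controls and 6.43, 5.85 and 6.07 in mutants, and the mutant range began well above the control range. Its log2 fold change was 1.41 (SE 0.29, unadjusted p = 0.00126, adjusted p = 0.167), or 2.66-fold, and 0.80 with log2(signal + 32), which shrinks differences of dim probe sets. These values are from 1459937_at, the probe set annotated with Ass1 alone. Another, 1416239_at, which the annotation lists for both Ass1 and Gm5424 and which was therefore assigned to neither, had means of 11.81 in controls and 12.36 in mutants. Those groups were apart too, by a smaller log2 difference of 0.55 (SE 0.21, adjusted p = 0.340). Asl gave 10.18, 10.26 and 10.70 in controls and 10.93, 10.96 and 11.88 in mutants. Mutant 3 was the highest by far, and the log2 fold change was 0.87 (SE 0.31, unadjusted p = 0.0222, adjusted p = 0.330). It was 0.56 without mutant 3, and 0.42 on the deposited scaling, where the groups overlapped. Arg1, arginase, which releases urea, gave 12.30, 12.17 and 12.38 in controls and 12.62, 12.58 and 12.79 in mutants. All mutants were above all controls, but by a log2 fold change of only 0.38 (SE 0.19, adjusted p = 0.391), which was -0.07 on the deposited scaling and -0.05 after quantile normalization.

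The mitochondrial step after Cps1 did not follow this pattern. Otc, which makes citrulline from ornithine, gave 11.46, 11.22 and 11.12 in controls against 7.35, 11.34 and 10.57 in mutants. Mutant 1 was far below the controls, mutant 2 lay within their range and mutant 3 below it, which gave a log2 fold change of -1.51 with an SE of 0.89 (adjusted p = 0.436). Of the other two probe sets of Otc, 1436615_a_at had -1.0 (SE 0.70, adjusted p = 0.498), and 1425540_at, dimmer and with all mutants below all controls, had -1.89 (SE 0.53, adjusted p = 0.285). Slc25a13, citrin, which brings aspartate out of mitochondria, had the same form, with 9.78, 9.67 and 9.70 in controls and 7.31, 9.76 and 9.38 in mutants. Again the low value was that of mutant 1 (log2 fold change -0.90, SE 0.57, adjusted p = 0.462). Slc25a15, the ornithine and citrulline carrier, ran from 10.43 to 10.72 in controls and gave 10.21, 10.84 and 11.48 in mutants (log2 fold change 0.26, adjusted p = 0.703). Mutant 1 was the low mutant here as well.

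**Figure D2:**
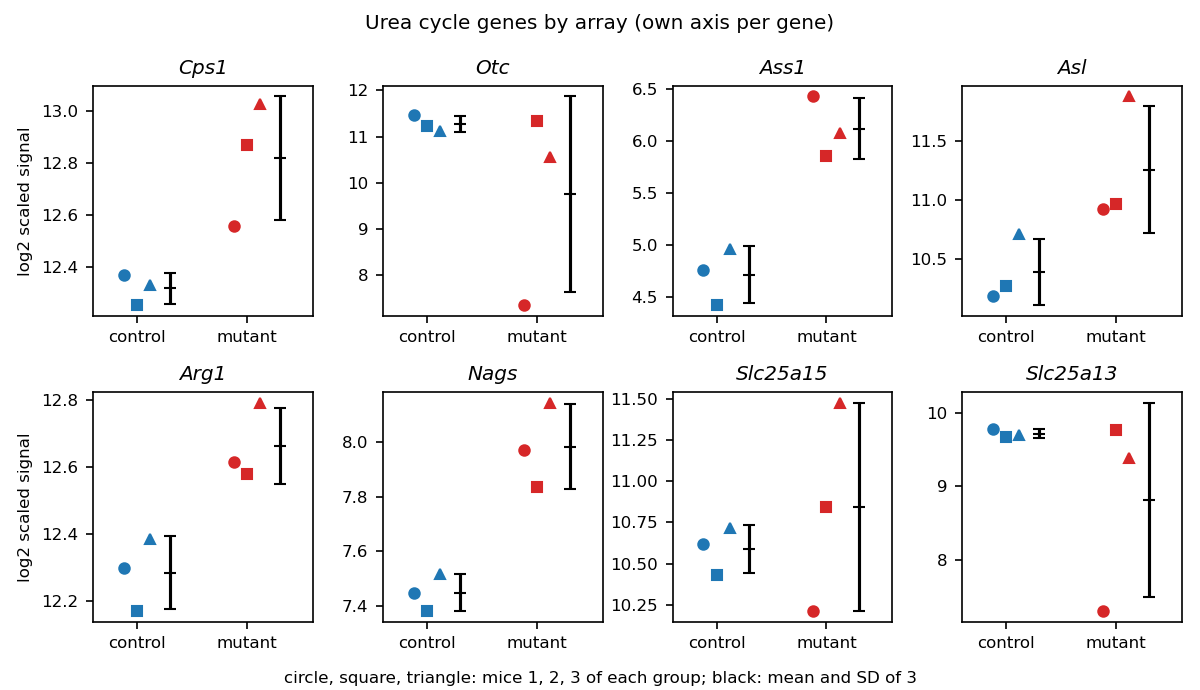
Log2 scaled signal of the 8 urea cycle genes, 1 panel and 1 vertical axis per gene, with controls in blue, mutants in red and the mean and SD of 3 in black. Cps1, Ass1, Asl, Arg1 and Nags have all mutants above all controls, and in Otc and Slc25a13 mutant 1 lies far below the rest.

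Among the enzymes that gather nitrogen as glutamate, Got1 stood apart from the others. Got1 is the cytosolic aspartate aminotransferase. It gave 10.08, 10.17 and 10.09 in controls and 12.55, 10.99 and 12.10 in mutants, so that the controls were tight and every mutant was higher, mutant 2 least. The log2 fold change of 1.76 (SE 0.38, 95% interval 0.90 to 2.63, unadjusted p = 0.00156, adjusted p = 0.182) was the highest of the 40, or 3.40-fold, and was 0.93 with the 3' to 5' index as a covariate. Its mitochondrial counterpart Got2 had a log2 fold change of 0.01 (SE 0.19) on its brightest probe set, with 11.26 to 11.40 in controls and 11.18 to 11.43 in mutants. The dimmer probe sets of Got2 differed. 1417716_at had -0.55 (SE 0.31), with overlap, and 1430397_at, the dimmest, had 0.65 (SE 0.46), with all mutants above all controls. Glud1, glutamate dehydrogenase, had -0.01 (SE 0.20, 95% interval -0.46 to 0.44). On the brightest probe set of each, the mean did not differ by more than the spread of the arrays. Gpt, alanine aminotransferase, gave 10.28, 10.14 and 10.57 in controls and 9.58, 11.02 and 10.99 in mutants on its brighter probe set (log2 fold change 0.20, SE 0.39). Mutant 1 lay below the controls and the other mutants above. The dimmer probe set (1453216_at) had all mutants above all controls (log2 fold change 1.14, SE 0.31, adjusted p = 0.275).

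In tyrosine breakdown 2 of the 5 genes, those of the 1st and 2nd enzymes, were higher on every mutant array, against 14.1% of all genes. Tat, tyrosine aminotransferase, gave 11.82, 11.92 and 11.74 in controls and 13.04, 12.45 and 12.64 in mutants. Mutant 1 was the highest, and the log2 fold change was 0.88 (SE 0.22, unadjusted p = 0.00386, adjusted p = 0.249), or 1.84-fold, and 0.43 on the deposited scaling, with overlap. Hpd, the dioxygenase that follows, gave 12.47, 12.20 and 12.48 in controls and 12.86, 12.68 and 12.97 in mutants (log2 fold change 0.45, SE 0.20, adjusted p = 0.364), which was 0.0037 on the deposited scaling and 0.071 after quantile normalization, with overlap in both. The 3 later enzymes overlapped between groups. Fah, which performs the last step, had 0.18 (SE 0.21), Hgd, homogentisate dioxygenase, -0.19 (SE 0.33) and Gstz1, maleylacetoacetate isomerase, -0.68 (SE 0.39). Hgd and Gstz1 were lowest in mutant 1, at 10.16 and 9.24.

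In the tryptophan pathway, 2 of the 5 genes had all mutants below all controls, against 10.8% of all genes. Tdo2, which opens the indole ring, gave 12.41, 12.26 and 12.24 in controls and 12.59, 12.34 and 12.60 in mutants, with overlap (log2 fold change 0.21, SE 0.19), and its other probe sets had -0.30 and -0.18. Kynu, kynureninase, gave 8.81, 8.74 and 8.79 in controls and 5.90, 8.41 and 8.31 in mutants, and Haao, which oxidises its product on the way to NAD, gave 10.28, 10.14 and 10.34 against 7.11, 10.03 and 9.69. These were the only genes of the 40 with all mutants below all controls, by log2 fold changes of -1.24 (SE 0.61, adjusted p = 0.388) and -1.31 (SE 0.68, adjusted p = 0.401). Without mutant 1 the values were -0.42 and -0.39, so that array set most of their size, and with the 3' to 5' index as a covariate they were 0.24 and 0.35. Kmo, which hydroxylates kynurenine, gave 6.27, 8.67 and 9.43 in mutants against 9.24 to 9.42 in controls (log2 fold change -1.18, SE 0.70, and -0.25 without mutant 1). Afmid, the formamidase, gave 6.25, 9.27 and 9.32 in mutants against 8.36 to 8.97 in controls, so mutants 2 and 3 were above and mutant 1 below. Its probe set 1428885_at had the same form. On the dimmer 1431722_a_at mutants 2 and 3 (5.51 and 5.07) were not above all controls (5.48 to 6.13). The median of the 5 genes was -1.18, and 0.26 when the 3' to 5' index was a covariate of the fit.

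The 4 histidine enzymes (Hal, Uroc1, Amdhd1 and Ftcd, in the order in which they act) overlapped between groups. In Amdhd1, imidazolonepropionase, mutant 1 was at 5.80 and mutants 2 and 3 at 9.02 and 9.50, against 9.18 to 9.77 in controls. Hal, histidine ammonia lyase, had 7.34, 8.92 and 9.64 in mutants against 9.26 to 9.59 in controls. Ftcd, which passes the carbon to folate, had 8.48, 10.50 and 10.55 against 9.84 to 10.36. Their log2 fold changes were -1.35, -0.76 and -0.30 (SE 0.85, 0.52 and 0.53), and that of Uroc1, urocanase, was 0.06 (SE 0.29). All 4 were lowest in mutant 1.

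Agxt, the aminotransferase that removes glyoxylate, and Gldc, the glycine-decarboxylating protein of the glycine cleavage system, had the same shape. Agxt gave 10.58, 10.28 and 10.67 in controls and 8.93, 11.01 and 10.78 in mutants, and Gldc 8.29, 8.52 and 8.55 against 6.66, 8.76 and 8.94. In both, mutant 1 was the lowest array and mutants 2 and 3 the highest pair, and the log2 fold changes were -0.27 (SE 0.51) and -0.34 (SE 0.56).

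Proline breakdown was split between its enzymes. Prodh, proline dehydrogenase, gave 8.64, 8.93 and 9.46 in controls and 10.13, 10.01 and 10.33 in mutants. The mutants were tighter than the controls and all higher, with a log2 fold change of 1.15 (SE 0.26, unadjusted p = 0.00227, adjusted p = 0.206), or 2.22-fold, and 0.70 on the deposited scaling, with overlap. Prodh2, which oxidises hydroxyproline, gave 8.65, 8.59 and 8.95 in controls and 7.18, 8.88 and 8.51 in mutants (log2 fold change -0.54, SE 0.42). Aldh4a1, the dehydrogenase on which both routes converge, gave 9.02, 8.63 and 8.73 against 6.59, 9.04 and 7.88 (log2 fold change -0.96, SE 0.55). Mutant 1 was the lowest array for both, and for neither were the groups apart.

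Of the 6 genes of methionine and homocysteine metabolism, 3 were higher on every mutant array, against 14.1% of all genes. These 3 are successive steps of the route from methionine to homocysteine. Mat1a makes S-adenosylmethionine, the methyl donor, and gave 11.87, 11.83 and 11.90 in controls and 12.82, 12.36 and 12.67 in mutants. Against controls with an SD of 0.033, the log2 fold change was 0.75 (SE 0.20, unadjusted p = 0.00620, adjusted p = 0.282). It was 0.30 on the deposited scaling and 0.36 after quantile normalization. Gnmt, which uses the methyl group to make sarcosine from glycine, gave 12.42, 12.08 and 12.34 in controls and 12.69, 12.61 and 12.73 in mutants (log2 fold change 0.40, SE 0.19, adjusted p = 0.386). That value was -0.05 on the deposited scaling and -0.03 after quantile normalization. Ahcy, which hydrolyses S-adenosylhomocysteine, gave 12.01, 11.81 and 12.09 against 13.17, 12.38 and 12.89, highest in mutant 1 (log2 fold change 0.85, SE 0.25, unadjusted p = 0.00924, adjusted p = 0.294), and 0.40 on the deposited scaling.

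The enzymes that dispose of homocysteine overlapped. Bhmt, which remethylates it with betaine, gave 12.51, 12.30 and 12.64 in controls and 8.52, 12.83 and 12.55 in mutants, a difference that lies in mutant 1 alone (log2 fold change -1.19, SE 1.0, and 0.20 without mutant 1). Cbs and Cth, the successive enzymes of transsulfuration to cysteine, had 0.15 (SE 0.19) and 0.35 (SE 0.40). Cth gave 11.38, 11.04 and 10.84 in controls and 10.53, 11.63 and 12.14 in mutants, so mutants 2 and 3 were above the controls and mutant 1 below.

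The last 3 genes degrade lysine and the branched-chain amino acids. Aass, which catalyses the entry steps of lysine breakdown, gave 10.11, 10.03 and 10.20 in controls and 10.95, 10.75 and 11.16 in mutants. All mutants were higher, with a log2 fold change of 0.84 (SE 0.20, unadjusted p = 0.00334, adjusted p = 0.241), or 1.79-fold, and of 0.39 on the deposited scaling. Bckdha and Bckdhb, subunits of the decarboxylase of the branched-chain keto acid dehydrogenase, overlapped, with 0.20 (SE 0.21) and 0.47 (SE 0.25).

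**Figure D3:**
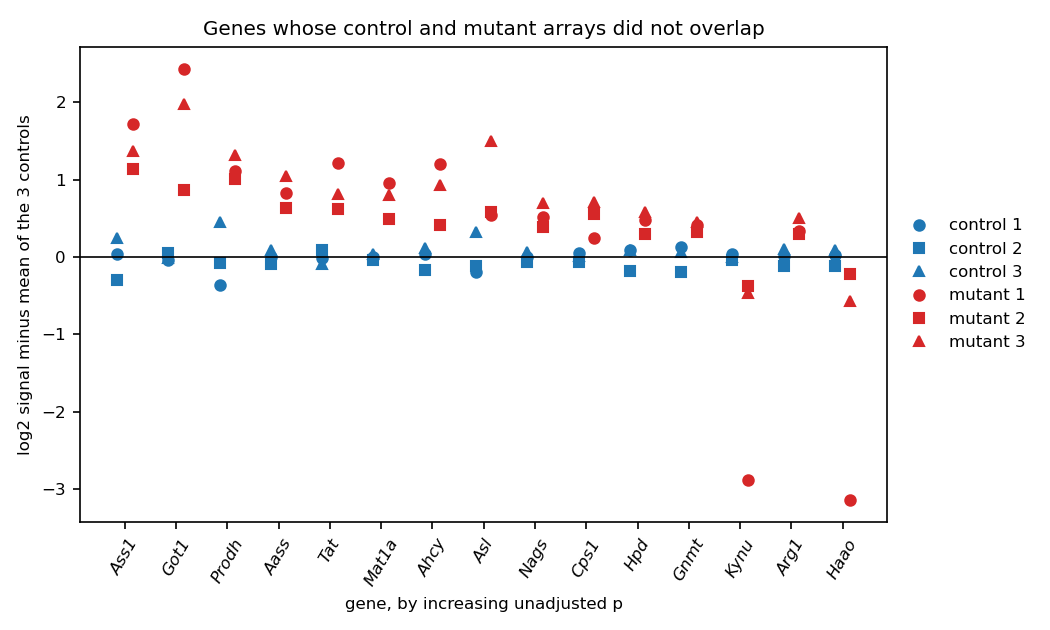
Log2 signal minus the control mean on each array for the 15 genes whose groups did not overlap, in order of unadjusted p. The 13 higher genes have all red points above all blue ones, with Got1 reaching 2.44 in mutant 1, and the low points of Kynu and Haao belong to mutant 1.

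The genes thus differed in how far the mutant arrays agreed. In mutant 1, 15 of the 40 genes were lower than the control mean by more than 1 on the log2 scale, or 37.5% against 20.5% of all genes, while 0 were in mutant 2 (6.25% of all genes) and 0 in mutant 3 (9.44%). Counted against the control range, 16 genes were above it in mutant 1 (40%, against 40.9% of all genes), 28 in mutant 2 (70.0% against 33.1%) and 27 in mutant 3 (67.5% against 42.1%). Below it lay 21 genes in mutant 1 (52.5% against 38.4%), 5 in mutant 2 (12.5% against 26.9%) and 8 in mutant 3 (20.0% against 29.0%). The median shift of the 40 from the control mean was -0.26, 0.30 and 0.39 on mutants 1 to 3, against 0.07, 0.07 and 0.14 over all genes. By pathway the shift in mutant 1 ran from -2.88 for tryptophan and -1.86 for histidine to 0.29 for the urea cycle and 0.41 for lysine and branched-chain amino acids. Very bright probe sets were often higher: of the 72 genes with a control mean of 12 or more, 36 (50%) had all mutants above all controls and 7 (9.72%) had all below. Of the 6 such genes of amino acid breakdown, 4 were above (Cps1, Arg1, Hpd and Gnmt; not Tdo2 and Bhmt) and 0 below. At lower levels this was not so, with 19.8% of all genes above and 22.5% below for means between 10 and 12, where 6 of 18 genes here were above and 1 below. For means between 8 and 10 the shares were 12.8% and 18.3%, and 1 of 14 was above and 1 below. Across all 13144 genes, control mean and shift correlated weakly and negatively on each mutant (Pearson r = -0.20, -0.12 and -0.21). The shift is measured from the same control mean, so noise alone can make r negative.

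**Figure D4:**
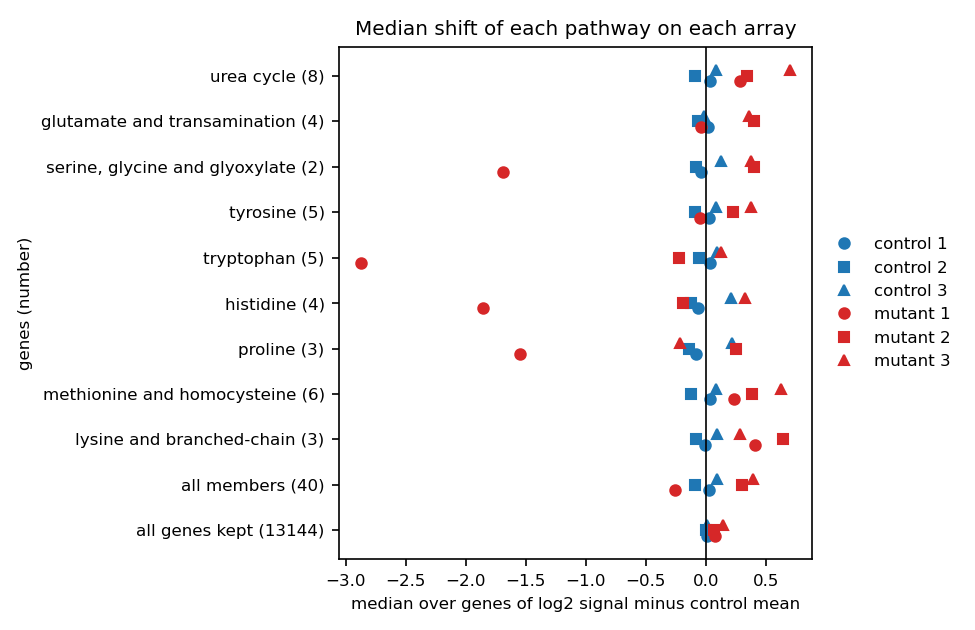
Median over each pathway's genes of log2 signal minus the control mean, for each of the 6 arrays, with all 40 members and all 13144 genes in the last rows. Mutant 1 lies far to the left for tryptophan (-2.88), histidine (-1.86), serine and glycine (-1.69) and proline (-1.55), and to the right of 0 for the urea cycle (0.29).

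With mutant 1 left out, 29 of the 40 were positive, against 57.3% of all genes, and the median log2 fold change was 0.38 against 0.08. No gene of the 40 passed the adjusted threshold, which 78 genes did (0.591%). At an unadjusted p under 0.05, 17 were higher and 2 lower, against 7.6% and 7.43% of all genes. In 23 both mutants lay above all controls and in 2 below, against 20.1% and 14.4% of all genes. Among the 7 genes that joined the higher ones at that p were Gpt at 0.68 (SE 0.17), Cth at 0.80 (SE 0.22), Slc25a15 at 0.57 (SE 0.21) and Afmid at 0.59 (SE 0.21). The 2 lower ones were Kynu and Haao. Leaving out mutant 2 instead brought Got1 past the threshold, at 2.21 on the log2 scale (SE 0.22, adjusted p = 0.00897), where 2.34% of all genes passed; over the alternatives the adjusted p of Got1 ran from 0.00217 to 0.929. With array quality weights in limma, 14 of the 40 passed, all higher, against 12.6% of all genes. These were the 10 named above together with Arg1, Hpd, Cth and Slc25a15. That fit gave mutant 3 a weight of 2.92 and mutants 1 and 2 weights of 0.205 and 0.464, so it rests largely on 1 mutant. With the 3' to 5' index as a covariate in all 6 arrays, all 40 genes had a positive value, against 57.4% of all genes, with a median of 0.46, and 0 passed the threshold, against 0.0228% of all genes. At an unadjusted p under 0.05, 10 of the 40 were then higher, against 2.68% of all genes, and 0 lower, against 3.04%. The index was highest in mutant 1 (2.18), the array with most of the low values, against 0.78 to 1.22 in controls. It thus partly follows the groups, and this fit cannot fully tell group and index apart.

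**Figure D5:**
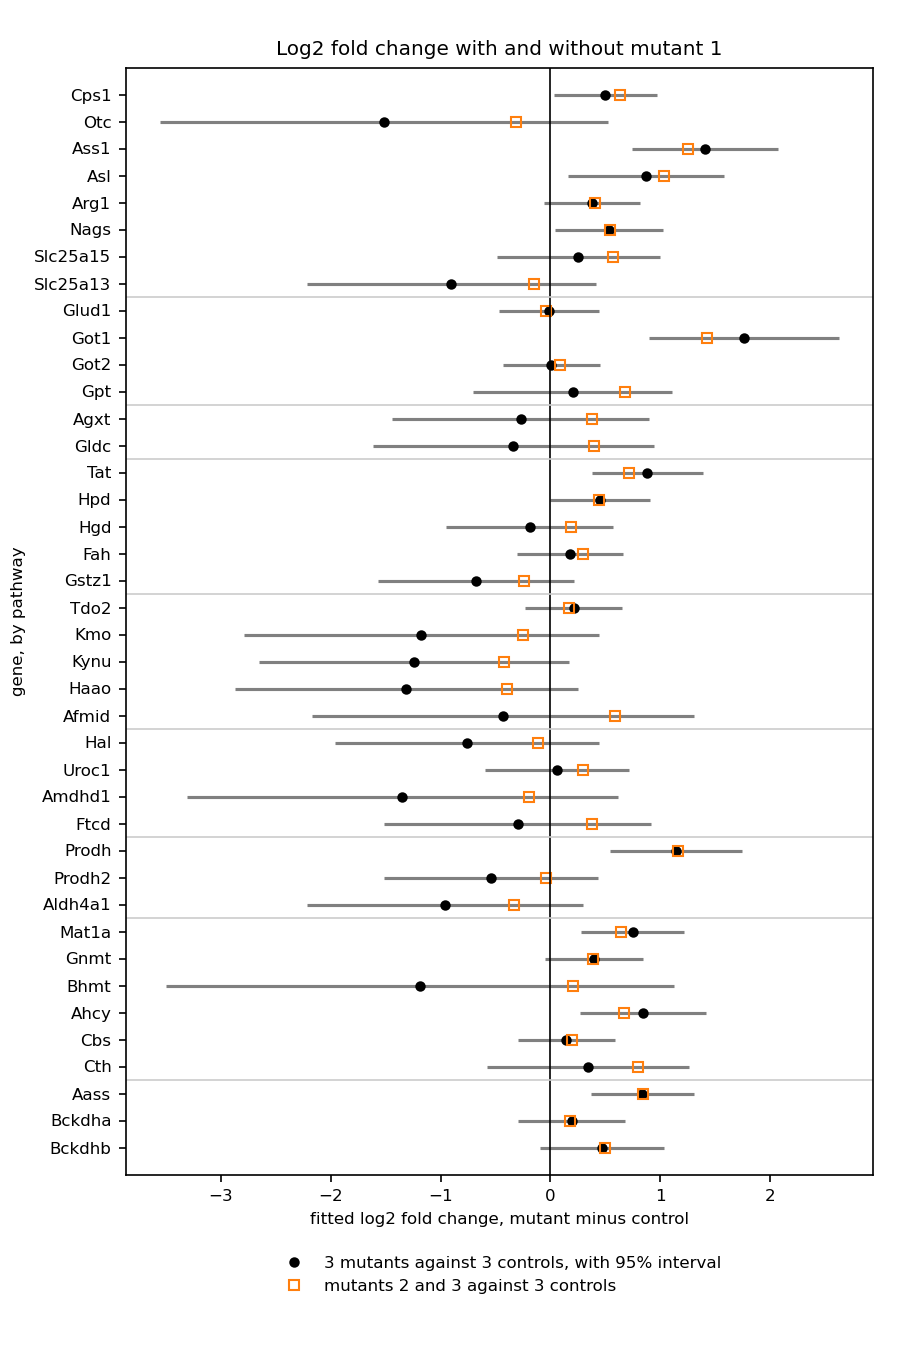
Fitted log2 fold change of the 40 genes with all 3 mutants (black, with 95% interval) and with mutants 2 and 3 only (orange squares), in pathway order. Wide bars to the left, as in Otc, Bhmt and Amdhd1, shrink toward 0 or cross it without mutant 1, while Got1, Ass1 and Prodh stay above 1.

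A wider list of 85 other genes of amino acid metabolism did not share the upward median. Of 71 kept, 0 passed the threshold (limma). At an unadjusted p under 0.05, 4 were higher, against 7.36% of all genes, and 8 lower, against 7.01%. Without overlap 6 lay above the controls, against 14.1% of all genes, and 15 below, against 10.8%. The median was -0.41, against 0.06 over all genes. The median shift in mutant 1 was -1.20, and it was 0.04 and -0.16 in mutants 2 and 3. The 4 higher genes were Oat, ornithine aminotransferase (log2 fold change 1.01, SE 0.28), Slc7a2, a carrier of arginine and lysine (0.93, SE 0.26), Slc1a2, a glutamate carrier (1.01, SE 0.33), and Slc38a4, a carrier of neutral amino acids (0.61, SE 0.20). Each had all mutants above all controls. For Oat the signals were 11.02, 10.16 and 10.75 in controls and 11.31, 11.87 and 11.78 in mutants. On the lower side Kyat1, a kynurenine aminotransferase, had the smallest p of the list, with 7.88, 7.91 and 7.52 in controls and 5.0, 6.49 and 6.19 in mutants (log2 fold change -1.88, SE 0.40, adjusted p = 0.176). Qprt, which follows Haao toward NAD, had -1.26 (SE 0.49), and Mpst and Ethe1 of sulfur oxidation had -1.09 and -0.84 (SE 0.33 and 0.32). Among the serine and glycine genes, Glyctk had -1.22 (SE 0.44) and Psph, the last enzyme of serine synthesis, had -0.83 (SE 0.30). All mutants lay below all controls for each of these, and the gap was widest in mutant 1. Kyat3, another kynurenine aminotransferase, went the other way, with all mutants above all controls (log2 fold change 0.996, SE 0.45, adjusted p = 0.368). It gave 9.80, 9.86 and 8.14 in controls and 10.47, 10.20 and 10.11 in mutants, so the size rests in part on the low control 3.

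Of 15 regulators of these pathways that were measured, 1 was higher at an unadjusted p under 0.05, against 7.36% of all genes. At that p 0 were lower, against 7.01% of all genes. Without overlap 2 lay above the controls, Atf4 and Hnf4a (log2 fold change 0.30, SE 0.22, for Hnf4a), against 14.1% of all genes. Nr3c1 was the 1 below, against 10.8% of all genes. Atf4, the transcription factor of the amino acid response, gave 8.27, 8.39 and 8.25 in controls and 9.90, 8.55 and 8.93 in mutants. All mutants were higher, mutant 1 most (log2 fold change 0.82, SE 0.34, unadjusted p = 0.0442, adjusted p = 0.359). Nr3c1, the glucocorticoid receptor, was lower on all mutants (-0.50, SE 0.28, adjusted p = 0.427), and Gcgr, the glucagon receptor, overlapped (-0.06, SE 0.25). Srf itself gave 5.31, 5.14 and 5.11 in controls and 4.17, 5.24 and 2.54 in mutants, so mutant 2 was within reach of the controls (log2 fold change -1.20, SE 0.62, adjusted p = 0.398). No source used here says whether that probe set lies within the removed exons, so it does not check the labels.

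Markers of cell types and of zones within the lobule moved as well, and their part in these results was not tested. Summed linear signals of 5 hepatocyte markers were 25754 to 29892 in controls and 31130 to 36742 in mutants. The 5 periportal markers summed to 7363 to 8241 in controls and 4672 to 6252 in mutants. Only Cyp2f2 among them had groups apart (log2 fold change -4.53, adjusted p = 0.0757). The other 4 overlapped, with Hsd17b13 at 0.76, Pck1 at 0.12, Cdh1 at -0.63 and Aldh1b1 at -1.57. The 8 pericentral ones, which include Oat and Slc1a2, summed to 12937 to 15535 in controls and 13637 to 19027 in mutants. Of 7 stellate markers the sums were 2473 to 2820 and 804 to 2670, of 6 endothelial ones 620 to 896 and 304 to 1231, and of 6 Kupffer ones 977 to 1383 and 813 to 1075, with mutant 1 or 3 lowest. Sums of 4 cholangiocyte markers were 33.9 to 36.7 and 39.2 to 62.6, of 3 lymphocyte markers 61.6 to 77.9 and 28.6 to 77.2, and of 2 erythroid ones 235 to 486 and 17.7 to 363. The cholangiocyte markers Krt7 and Sox9 had control means at or below the background estimate. So did the mutant means of the lymphocyte markers Cd3g and Cd79a and of the stellate marker Col1a1. The 3 kidney tubule markers, genes not expected in liver, had control means below the background estimate and summed to 15.3 to 23.6 in controls and 30.5 to 48.8 in mutants.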

How the data were processed

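Liver RNA was labelled with biotin and hybridised to 1 array per mouse, and samples were grouped by their titles. The deposited table holds linear intensity values from GCOS, per the submitters' processing notes, and no source used here names its algorithm, its version or the target of its scaling. Each array was scaled to a common 2% trimmed mean, floored at 1 and put on the log2 scale, and the lower 40% of probe sets by mean were left out, which kept 27022 of 45101. A gene was represented by its brightest kept probe set with 1 symbol. Because arrays share a trimmed mean, a change common to most transcripts would not show. Groups were compared with limma 3.58.1 (R 4.3.3), two-sided, with a variance trend and Benjamini-Hochberg adjustment over all kept probe sets. The steps were tested on simulated data. Background was the 95th percentile of 83 olfactory, vomeronasal and taste receptor probe sets. The members and lists were chosen with earlier results of these data known. All members may be named, and of other amino acid genes those past the threshold or at most 2 per pathway by p, with Kyat3 added beside Kyat1. With 3 arrays per group, their number limits the precision. Same-numbered samples did not deviate together (correlations -0.037, 0.018 and 0.041), so the numbers do not pair the mice.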

Additional observations from a re-analysis of the deposited data

How the results depend on the processing

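The sign of the 10 genes with an unadjusted p under 0.05 was kept in each of the 17 alternatives run. These genes were chosen by p in the main fit of the same arrays, so a kept sign is no separate support. Of all 40 genes, 11 changed sign on the deposited scaling and 17 with the 3' to 5' index as a covariate. None of the 40 genes passed the adjusted threshold except with array weights (14) or without mutant 2 (Got1). The median of all 40 (0.16) was -0.29 on the deposited scaling and 0.46 with the 3' to 5' index as a covariate, where all 40 were positive. That index partly follows the groups. Probe sets past the threshold numbered 20, and 35 on the deposited scaling, 32 with arrays centred on their median, 107 with log2(signal + 32), 0 without the filter, 9 without the variance trend, 5 with the covariate, 3086 with array weights and 2 to 578 with 1 array left out. Without the filter, 6.87% of genes had an unadjusted p under 0.05 and were higher, and 5.06% were lower. With 1 array left out, 0 to 1 of the 40 passed, 7 to 19 had an unadjusted p under 0.05 (4 on the deposited scaling, where 1.46% of all genes were higher and 13.8% lower, and 20 with array weights, where 17.7% were higher and 14.5% lower) and 15 to 25 had groups apart. The replicate block gave 22 probe sets, 0 of the 40 genes past the threshold and 8 at an unadjusted p under 0.05, with Cps1 and Nags no longer among them, and it changed no adjusted call of the 40.

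On the deposited scaling the medians were -0.0096 for the urea cycle, -0.34 for glutamate, -0.27 for tyrosine, -0.079 for methionine and 0.018 for lysine and branched-chain genes. With the covariate they were 0.65, 0.54, 0.88 (serine and glycine), 0.26 (tryptophan), 0.39 (histidine), 0.41 (proline) and 0.71 (lysine and branched-chain). After quantile normalization they were 0.15 for the urea cycle, -0.024 for tyrosine and 0.21 for methionine, and cyclic loess, chosen after seeing the data, gave 0.26 for the urea cycle. Array weights gave 0.66, 0.33, 0.60 and 0.31 for the urea cycle, glutamate, methionine and lysine groups, and means over a gene's probe sets gave 0.35 for glutamate and 0.45 for tyrosine. Leaving out 1 array gave -0.042 to 0.38 for glutamate, 0.31 to 0.63 for the lysine group, -0.65 to 0.39 for serine and glycine, -1.63 to -0.25 for tryptophan, -0.96 to 0.095 for histidine, -0.89 to -0.035 for proline, 0.087 to 0.30 for tyrosine, 0.36 to 0.56 for the urea cycle and 0.25 to 0.52 for methionine. The cause of these moves was not tested.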

Other observations

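Of the 40 genes, 12 had more than 1 kept probe set. In 5 of them (Afmid, Amdhd1, Gpt, Kynu and Otc) the probe sets had log2 fold changes of 1 sign, and in 7 (Cbs, Glud1, Got2, Hgd, Slc25a15, Tdo2 and Uroc1) of both signs. For Tdo2 the brightest probe set had 0.21 and the other pair -0.30 and -0.18, and for Slc25a15 the dimmer probe set had -0.54, with 5.71 in mutant 1 against 7.58 to 8.02 in controls.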
